A study of Mus musculus with 6 samples.

Results

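The genes of collagen, laminin and integrin chains were followed in mouse neural progenitor cells (NPC), the cultured precursors of neurons and glia. They were chosen by symbol alone: Col, a number, a and a number for collagens, Lama, Lamb or Lamc and a digit for laminins, and Itga or Itgb for integrins. The rule gave 86 of the 42365 genes of the count table, of which 44 were collagen genes, 11 laminin genes and 31 genes with an integrin symbol. Of the last, 27 encode integrin chains, and Itgb1bp1, Itgb1bp2, Itgb3bp and Itgbl1 share the letters without encoding one. RNA was sequenced from wild-type parental cells and from clones labelled as knockouts (KO), whose library names begin with PARKIN_KO. The 6 libraries fell into 3 groups of 2: parental, KO clone 1 and KO clone 2, so that each knockout group is 1 clone. The titles number the parental libraries as clones too. No label says that libraries of a group were separate cultures, and p-values of the fit of single libraries then reflect only a library-to-library spread that may be technical.

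Collagens are secreted proteins whose chains wind in threes into a triple helix. The network-forming type IV collagens are the scaffold of basement membranes, the thin sheets on which epithelia rest and which line the surface of the developing brain. Laminins are cross-shaped trimers of an α, a β and a γ chain that form the cell-facing sheet of the same membranes. Integrins are receptors of an α and a β chain that span the cell membrane and tie such matrix to the cytoskeleton, and the processes of radial glia, the progenitors of the embryonic brain, are anchored to the surface basement membrane through them.

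Totals ran from 58871554 to 69530032 counts per library. Values are given as CPM, for which counts were divided by TMM-scaled library sizes, in every library, and levels of different genes are compared as CPM per kb of exon. Chi-square per gene between the libraries of a group was 3.48 for the parental pair, 22.1 for the clone 1 pair and 4.92 for the clone 2 pair, so the clone 1 libraries differed most from each other. The knockout genotype is used as labelled. Progenitor markers were abundant in every library, with a summed level of Nes, Sox2, Pax6, Vim, Sox1, Msi1, Fabp7 and Hes5 of 2976 to 2988 CPM in parental cells, 2522 to 2535 in clone 1 and 3102 to 3111 in clone 2. Within that list, Nes, Fabp7 and Hes5 rose in the labelled knockout cells, and Sox1 and Msi1 fell.

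The collagen, laminin and integrin genes together took a different make-up in the labelled knockout cells. The summed level of the 44 collagen genes was 581 and 577 CPM in parental cells, 384 and 388 in clone 1 and 251 and 253 in clone 2. The laminin genes summed to 587 and 586 CPM in parental cells, 823 and 873 in clone 1 and 822 and 834 in clone 2. The integrin genes summed to 1297 and 1274 CPM in parental cells, 1820 and 1716 in clone 1 and 1500 and 1450 in clone 2. Collagen RNA was therefore lower, and laminin and integrin RNA higher, in all 4 labelled knockout libraries than in both parental libraries. The higher sums did not hold gene by gene: Lama5 and Lamb1 rose while Lamc1 and Lamb2 fell, and Itgb1 and Itgav rose while Itgb5 fell. The integrin sum includes the 4 genes without an integrin chain, which together were at 24.8 to 30.1 CPM. A single gene, Col4a5, made up 48.4% and 48.2% of the parental collagen sum but 12.8% and 12.0% of it in clone 1 and 21.2% and 20.3% in clone 2. Without Col4a5 the collagen sums were 299.7 and 298.9 CPM in parental cells, 335 and 341 in clone 1 and 197 and 202 in clone 2, so that clone 1 then lay above the parental cells and clone 2 below. In bulk RNA, fewer cells of a type and less RNA per cell cannot be told apart.

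The first comparison set the 2 labelled knockout clones, each as 1 replicate made by adding its libraries, against the parental libraries. Of the 86 genes, 81 could be tested and 36 passed at an adjusted p of 0.05 (quasi-likelihood test of edgeR, Benjamini-Hochberg over 24506 genes), 10 higher and 26 lower. Over all genes tested the share called was 26.7%, with 13.0% higher and 13.6% lower. Of 42 tested collagen genes, 3 rose and 15 fell, and the median log2 fold change of the tested ones was -0.38, beside 0.03 for all genes. Of the 11 laminin genes, 2 rose and 4 fell (median -0.48). Among 24 tested integrin chains, 4 rose and 7 fell (median -0.49), and of the 4 genes without an integrin chain Itgbl1 rose, a call lost without either parental library. All 4 labelled knockout libraries lay above both parental ones for 20 of the 81 tested genes and below them for 40, beside 27.0% and 29.6% of all genes. The calls rest on both parental libraries: leaving out either left 1 parental library and fewer calls, among these genes and over all genes alike.

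**Figure D1:**
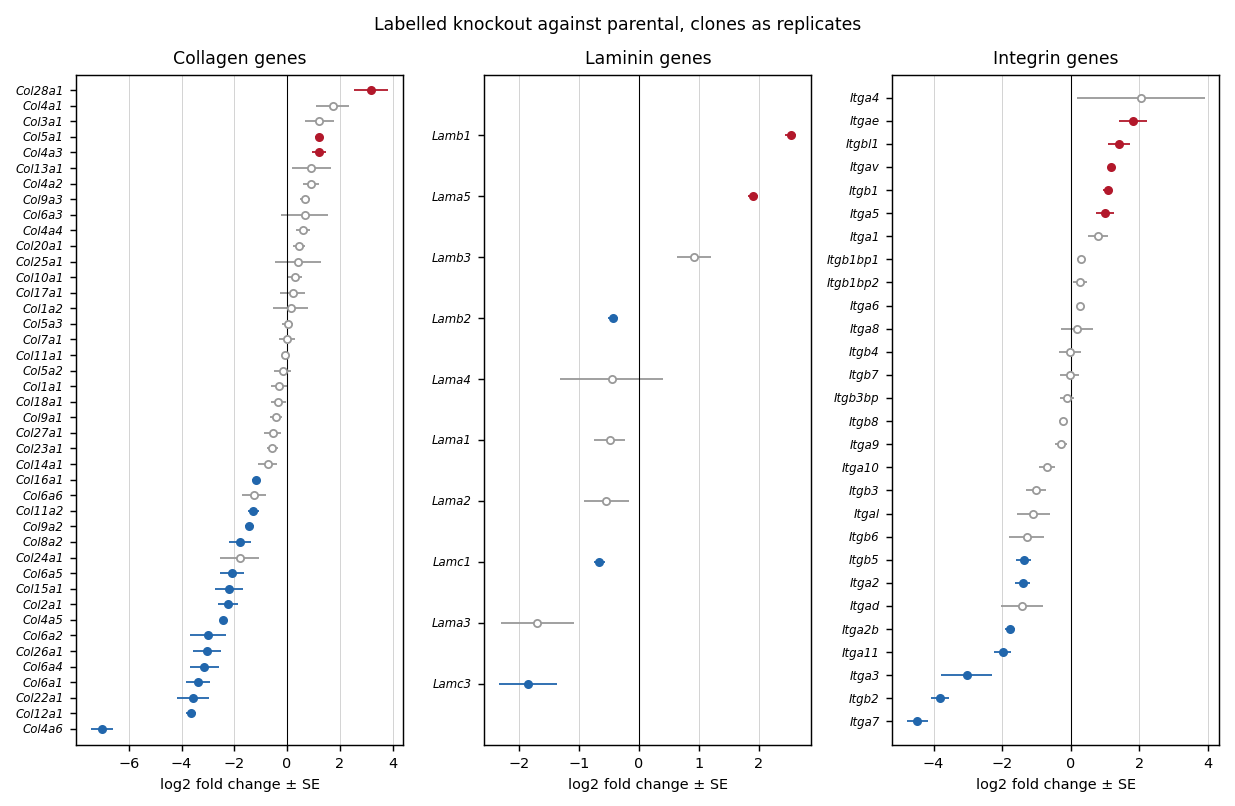
Log2 fold change of labelled knockout against parental cells, with the clones as replicates, for the tested collagen, laminin and integrin genes reported by name; bars are SE, red points passed the test as higher, blue as lower, and open grey points did not pass. Col4a6 lies farthest left among the collagens at -7.02, and Lamb1 and Lama5 are the 2 laminin genes called higher.

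Among the collagens, the type IV chains changed most in RNA amount. Col4a5 (ENSMUSG00000031274, chrX:141475385-141689234, plus strand, GRCm38), a chain of specialised basement membranes such as that of the kidney filter, was at 281 and 278 CPM in parental cells, 49.0 and 46.4 in clone 1 and 53.2 and 51.3 in clone 2. It fell 5.46-fold (log2 fold change -2.45 ± 0.098 (SE), adjusted p = 0.000243), and the groups did not overlap. Its partner chain Col4a6 (ENSMUSG00000031273, chrX:141165403-141474076, minus strand) was at 12.8 and 12.9 CPM in parental cells, 0.0763 and 0.0291 in clone 1 and 0.0453 and 0.243 in clone 2. These levels came from 821 and 763 counts in the parental libraries against 5 and 2 in clone 1 and 3 and 15 in clone 2. Col4a6 RNA was thus nearly gone from both clones, with a log2 fold change of -7.02 ± 0.41 (SE) and adjusted p = 0.000519.

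The 2 genes lie head to head on the X chromosome with 1308 bases between their GENCODE start sites, and their upstream stretches are shown because both chains fell together in both clones. The stretches come from RefSeq promoter windows on GRCm38.p6, are read 5′ to 3′ on the gene's own strand and leave out annotated exons. Capitals mark matches, on either strand, to the TATA box motif TATAAA, the box named by its letters CCAAT, the GC box motif GGGCGG (read as CCGCCC on the other strand) or the AP-1 motif TGANTCA, none of which overlap each other here. Of 32851 RefSeq windows of 300 bases, 13.62% hold TATAAA, 37.41% CCAAT, 35.66% GGGCGG and 7.81% TGANTCA. The stretches shown are shorter than these windows.
Col4a6: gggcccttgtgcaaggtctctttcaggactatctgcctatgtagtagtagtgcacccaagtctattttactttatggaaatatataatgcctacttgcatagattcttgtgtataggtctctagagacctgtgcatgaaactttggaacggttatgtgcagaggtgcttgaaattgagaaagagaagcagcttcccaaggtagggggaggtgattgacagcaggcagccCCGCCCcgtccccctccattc
Col4a5: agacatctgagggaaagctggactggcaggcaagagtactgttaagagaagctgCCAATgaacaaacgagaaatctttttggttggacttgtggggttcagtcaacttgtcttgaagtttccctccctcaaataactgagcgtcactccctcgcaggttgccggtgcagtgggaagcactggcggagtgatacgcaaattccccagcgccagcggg
The Col4a6 stretch (chrX:141474077-141474326) ends at the start site and holds 1 GC box. The Col4a5 stretch (chrX:141475169-141475384) ends 35 bases before the RefSeq start site and holds 1 CCAAT box. The full Col4a5 window also holds 1 GC box. A match is a string of letters in the window and says nothing of binding in these cells.

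The other type IV chains did not fall. Col4a1, with Col4a2 the chain of nearly all basement membranes, was at 4.65 and 4.48 CPM in parental cells, 23.7 and 22.8 in clone 1 and 6.31 and 6.34 in clone 2. Col4a2 was at 3.87 and 3.49 CPM in parental cells, 8.72 and 8.83 in clone 1 and 4.91 and 4.72 in clone 2. Both were higher in all 4 labelled knockout libraries, by far the more in clone 1, and neither passed the test with the clones as replicates (Col4a1 1.72 ± 0.62, adjusted p = 0.106, and Col4a2 0.91 ± 0.31, adjusted p = 0.0847). These 2 genes are also head to head, on chromosome 8, and share 22 bases at their starts in GENCODE. Col4a3, a partner of Col4a5 in kidney basement membrane, was at 0.374 and 0.492 CPM in parental cells and at 0.795 to 1.15 in the labelled knockout libraries, and it rose 2.29-fold (log2 fold change 1.20 ± 0.26, adjusted p = 0.0266), a call lost without either parental library. Col4a4 was at 1.37 and 2.10 CPM in parental cells and 2.23 to 2.88 in the labelled knockout libraries, and did not pass (0.60 ± 0.26, adjusted p = 0.15). Per kb of exon, Col4a5 made up 93.3% of the type IV sum in parental cells, 59.7% in clone 1 and 80.1% in clone 2, and Col4a1 1.37%, 26.2% and 8.73%. The whole type IV sum was 44.6 CPM per kb in parental cells, 11.9 in clone 1 and 9.72 in clone 2.

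**Figure D2:**
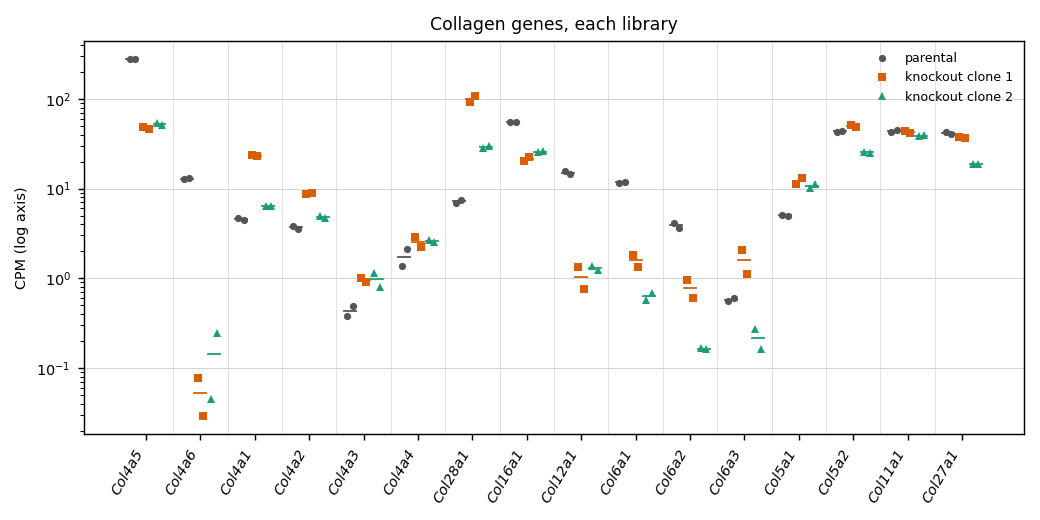
CPM (log axis) of 16 collagen genes in each library; points are libraries, lines are group means, grey circles parental, orange squares KO clone 1 and green triangles KO clone 2. Col4a5, Col4a6, Col12a1, Col6a1 and Col6a2 lie lower in all 4 labelled knockout libraries, Col28a1 and Col5a1 lie higher, and Col6a3 lies above the parental level in clone 1 and below it in clone 2.

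Collagen VI, a beaded filament collagen around cells and nerves whose usual trimer takes 1 chain from each of Col6a1, Col6a2 and Col6a3, was lower as far as its first 2 chains go. Col6a1 was at 11.6 and 11.9 CPM in parental cells, 1.83 and 1.34 in clone 1 and 0.574 and 0.681 in clone 2, and it fell 10.4-fold (-3.38 ± 0.44, adjusted p = 0.00568). Col6a2 was at 4.18 and 3.61 CPM in parental cells, 0.961 and 0.597 in clone 1 and 0.166 and 0.162 in clone 2 (-3.02 ± 0.69, adjusted p = 0.0321), a call lost without either parental library, without the second clone 1 library and with no filter on low counts. Both chains were low in both clones and lower in clone 2 than in clone 1. Col6a3 went 2 ways: it was at 0.561 and 0.594 CPM in parental cells, 2.07 and 1.11 in clone 1 and 0.272 and 0.162 in clone 2, and did not pass with the clones as replicates (0.67 ± 0.9, adjusted p = 0.63). The paralogs Col6a4 and Col6a5 were at 0.339 CPM or less in every library and fell, by 3.14 and 2.09 on the log2 scale, calls that were lost without parental library 2.

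Col28a1, a collagen known from the nodes and glia of peripheral nerve, rose furthest of the called collagens. It was at 6.94 and 7.43 CPM in parental cells, 93.3 and 106 in clone 1 and 28.1 and 29.4 in clone 2. All 4 labelled knockout libraries were higher, those of clone 1 by far the most (log2 fold change 3.19 ± 0.66, adjusted p = 0.032). The call was lost without either parental library, without the first clone 1 library and with no filter, with adjusted p up to 0.466. In clone 1 its level of 20.3 CPM per kb was above that of Col4a5 at 7.11, whereas in parental cells it was at 1.46 beside 41.6 for Col4a5. The stretch before the start of the gene (ENSMUSG00000068794, chr6:7997808-8192617, minus strand), shown as that of the collagen with the largest called rise, lies at chr6:8192618-8192867 and holds none of the 4 motifs.
Col28a1: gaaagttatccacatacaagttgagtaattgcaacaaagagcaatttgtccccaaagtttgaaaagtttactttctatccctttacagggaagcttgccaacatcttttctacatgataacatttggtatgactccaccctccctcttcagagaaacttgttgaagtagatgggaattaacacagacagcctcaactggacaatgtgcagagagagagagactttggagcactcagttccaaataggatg
The full 300-base window of Col28a1 had a GC content of 41.7%, beside a median of 52.7% over all RefSeq windows. The stretch shown holds 0 CpG.

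The fibrillar collagens, which form the striped fibres of connective tissue, were split. Col5a1, a regulator of fibre width, was at 5.10 and 4.99 CPM in parental cells, 11.1 and 13.1 in clone 1 and 10.1 and 11.1 in clone 2, and it rose 2.30-fold (1.20 ± 0.15, adjusted p = 0.00436), with adjusted p up to 0.059 without a parental library. Its partner Col5a2 was at 43.1 and 43.6 CPM in parental cells, 51.1 and 49.0 in clone 1 and 25.6 and 25.0 in clone 2, so the clones lay on opposite sides of the parental cells. Col11a1, a cartilage fibre chain, was at 42.3 and 44.8 CPM in parental cells and 38.6 to 43.3 in the labelled knockout libraries (-0.07 ± 0.096, adjusted p = 0.626), and the groups overlapped. Its partner Col11a2 was at 5.05 and 4.68 CPM in parental cells and 1.57 to 2.40 in the labelled knockout libraries and fell 2.42-fold (adjusted p = 0.0105), a call lost without either parental library. Col27a1 was at 42.7 and 40.8 CPM in parental cells, 37.8 and 36.6 in clone 1 and 18.7 and 18.7 in clone 2. It did not pass with the clones as replicates (-0.55 ± 0.32, adjusted p = 0.269), and in the fit of 6 libraries it was lower than parental in clone 1 by a small step (-0.17 ± 0.058, adjusted p = 0.0222) and in clone 2 by a larger one (-1.16 ± 0.06). The main fibres of skin and bone were scarce: Col1a1 was at 1.04 to 2.04 CPM over the 6 libraries, Col1a2 at 0.0906 to 0.397 and Col3a1 at 0.281 to 1.48. None of them passed with the clones as replicates. In the fit of 6 libraries, Col3a1 was called higher than parental in clone 1 (1.74, from 97 and 34 counts against 18 and 18). Col1a1 was called lower than parental in clone 2 (-0.77), and Col1a2 lower in clone 2 than in clone 1 (-1.77). Col2a1, the main cartilage fibre chain, was at 1.09 and 0.831 CPM in parental cells and 0.136 to 0.259 in the labelled knockout libraries, and fell (log2 fold change -2.25, adjusted p = 0.012).

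Col12a1 and Col16a1, which sit on fibres rather than form them, were lower. Col12a1, which binds collagen I fibres, was at 15.6 and 14.5 CPM in parental cells, 1.33 and 0.758 in clone 1 and 1.36 and 1.23 in clone 2, and it fell 12.6-fold (-3.66 ± 0.19, adjusted p = 0.000375). Col16a1 was at 55.1 and 55.2 CPM in parental cells, 20.3 and 22.6 in clone 1 and 25.6 and 26.0 in clone 2, and it fell 2.28-fold (-1.19 ± 0.13, adjusted p = 0.00271). For both genes the groups did not overlap. In the collagen IX trimer Col9a2 fell 2.71-fold, from 9.93 and 9.28 CPM to 3.0 to 3.90, while Col9a1 (log2 fold change -0.43) and Col9a3 (0.67, adjusted p = 0.0549) did not pass. Col23a1, which spans the cell membrane, was at 13.3 and 13.4 CPM in parental cells, 7.69 and 7.05 in clone 1 and 9.87 and 10.8 in clone 2 (-0.56 ± 0.2, adjusted p = 0.0969). The remaining collagen genes were at 2.30 CPM or less in every library except Col20a1, which reached 3.57. Among them Col8a2, Col15a1, Col22a1 and Col26a1 also fell, from parental levels of 0.645 CPM or less, and each of these 4 calls was lost without 1 or the other parental library.

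Laminin genes showed an exchange of amounts among few chains. Lama5 (ENSMUSG00000015647, chr2:180176373-180225859, minus strand), the α chain of most adult basement membranes, was at 121 and 123 CPM in parental cells, 436 and 457 in clone 1 and 448 and 449 in clone 2. It rose 3.75-fold (1.91 ± 0.084, adjusted p = 0.000283). Lamb1 (ENSMUSG00000002900, chr12:31265234-31329644, plus strand), the β chain of early embryonic laminins, was at 18.1 and 16.9 CPM in parental cells, 96.0 and 103 in clone 1 and 98.7 and 98.4 in clone 2. It rose 5.80-fold (2.54 ± 0.095, adjusted p = 0.000217), and for both genes the 4 labelled knockout libraries lay together, far above the parental pair. The stretch before Lamb1 is shown as that of the laminin with the largest rise. It lies at chr12:31265043-31265233, ends 60 bases before the RefSeq start site, and holds 1 CCAAT box and 2 GC boxes.
Lamb1: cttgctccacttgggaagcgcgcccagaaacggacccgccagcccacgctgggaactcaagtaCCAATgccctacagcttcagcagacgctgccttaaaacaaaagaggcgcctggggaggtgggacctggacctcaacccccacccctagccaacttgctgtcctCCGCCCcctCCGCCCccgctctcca
Its GC content was 63.9%.

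The other abundant laminin chains fell by less. Lamb2, the β chain of muscle, kidney and pial laminins, was at 153 and 149 CPM in parental cells, 105 and 116 in clone 1 and 105 and 109 in clone 2, and it fell 1.35-fold (-0.44 ± 0.082, adjusted p = 0.0169). Lamc1, the γ chain shared by most laminins, was at 291 and 292 CPM in parental cells, 183 and 195 in clone 1 and 169 and 176 in clone 2, and it fell 1.58-fold (-0.66 ± 0.089, adjusted p = 0.00598). The groups did not overlap in either gene, but both calls were lost without either parental library, with adjusted p up to 0.308 for Lamb2 and 0.105 for Lamc1. Lama3 and Lamb3, the α and β chains of skin laminin, were at 0.889 CPM or less in every library and did not pass. Lama1, the α chain of the earliest embryonic basement membranes, was at 0.92 and 1.02 CPM in parental cells and 0.503 to 0.86 in the labelled knockout libraries and did not pass (-0.48 ± 0.26, adjusted p = 0.229). Lama2, Lama4 and Lamc3 were at 0.61 CPM or less, and of these Lamc3 fell, a call lost without either parental library.

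Per kb of exon the laminin α sum was 10.9 CPM in parental cells, 39.3 in clone 1 and 39.4 in clone 2, with Lama5 at 98.3% of it or more in each group mean. The γ sum was 35.6, 22.9 and 20.9 CPM per kb, nearly all Lamc1. The β sum was 26.6 CPM per kb in parental cells, 28.4 in clone 1 and 27.6 in clone 2. Within it, Lamb1 went from 6.63% in parental cells to 35.5% in clone 1 and 36.0% in clone 2, and Lamb2 from 93.2% to 64.2% and 63.7%. In parental cells α chain RNA per kb was thus the lowest of the 3 chain classes, and in both clones it was the highest.

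**Figure D3:**
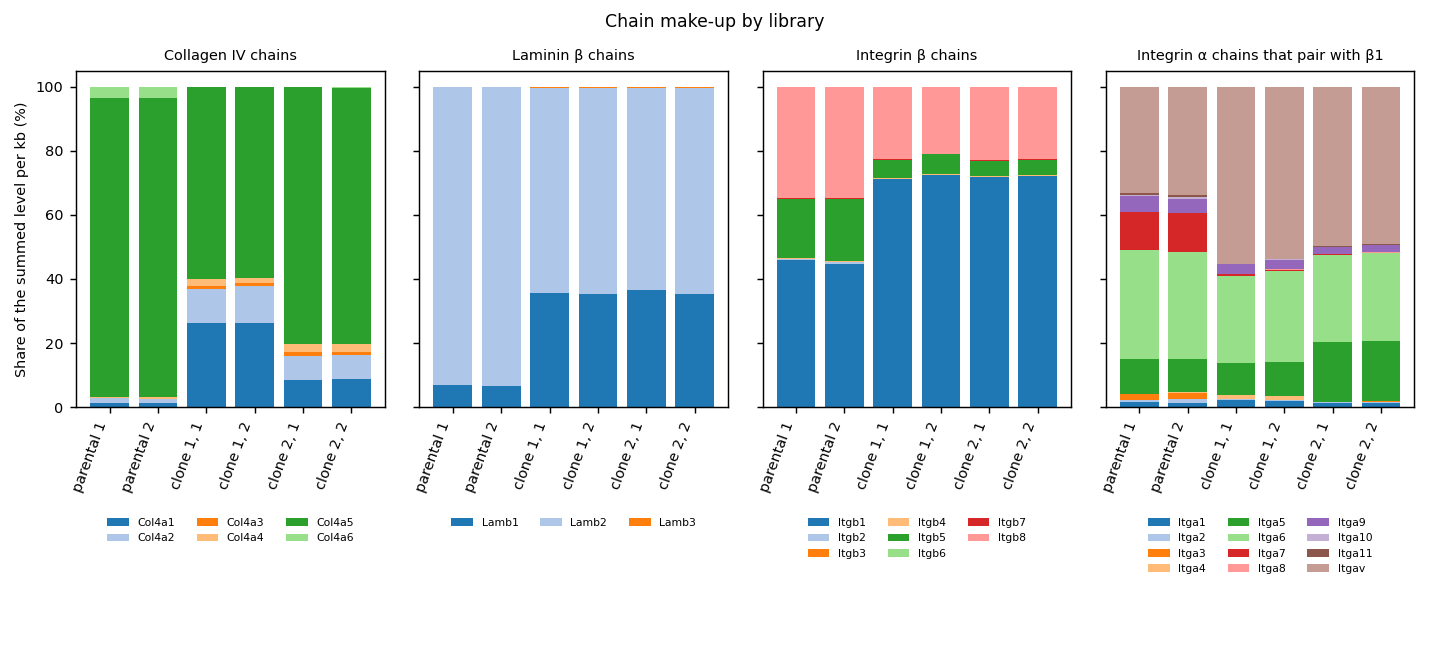
Share (percent) of each chain in the summed CPM per kb of its class, by library: collagen IV chains, laminin β chains, integrin β chains and integrin α chains that pair with β1. Col4a5 goes from 93.3% in parental cells to 59.7% and 80.1% in clones 1 and 2, Lamb1 from 6.63% to 35.5% and 36.0%, Itgb1 from 45.3% to 71.8% in both clones, and Itgav from 33.6% to 54.5% and 49.5%.

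Among integrins, the common β chain and its αv partner rose. Itgb1 (ENSMUSG00000025809, chr8:128685654-128733200, plus strand), the partner of most α chains and the chain of the collagen and laminin receptors, was at 238 and 228 CPM in parental cells, 549 and 532 in clone 1 and 432 and 414 in clone 2. It rose 2.11-fold (1.08 ± 0.13, adjusted p = 0.00447). Itgav (ENSMUSG00000027087, chr2:83724397-83806916, plus strand), the α chain of receptors for vitronectin, fibronectin and latent TGF-β, was at 176 and 177 CPM in parental cells, 438 and 410 in clone 1 and 367 and 358 in clone 2. It rose 2.28-fold (1.19 ± 0.1, adjusted p = 0.00143). In both genes the parental libraries were lowest, clone 2 lay between and clone 1 was highest. Itga5, the fibronectin receptor chain, was at 26.1 and 24.9 CPM in parental cells, 35.9 and 38.0 in clone 1 and 62.3 and 63.5 in clone 2, and it rose 2.00-fold (1.00 ± 0.26, adjusted p = 0.0447). That call was lost in 7 of 15 alternatives, among them leaving out either parental library, the second clone 1 library or the first clone 2 library and upper quartile scaling (adjusted p up to 0.209).

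None of the other β chains that pair with αv passed as higher. Itgb8, the chain of the αv receptor that activates TGF-β in brain, was at 489 and 479 CPM in parental cells, 475 and 417 in clone 1 and 374 and 351 in clone 2, and did not pass (-0.23 ± 0.12, adjusted p = 0.215). Itgb5, a vitronectin receptor chain, was at 82.3 and 86.1 CPM in parental cells, 38.2 and 39.6 in clone 1 and 25.2 and 24.3 in clone 2, and it fell 2.59-fold (-1.37 ± 0.21, adjusted p = 0.00958). Itgb3 was at 0.982 CPM or less and Itgb6 at 0.187 or less in every library, and neither passed. Of the β sum per kb, Itgb1 therefore took 45.3% in parental cells and 71.8% in each clone, Itgb8 34.7%, 21.8% and 22.7%, and Itgb5 18.8%, 5.94% and 4.82%.

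The laminin-binding α chains parted. Itga6, a laminin receptor chain used as a marker of stem cells, was at 152 and 146 CPM in parental cells, 182 and 181 in clone 1 and 168 and 167 in clone 2, and did not pass with the clones as replicates (0.26 ± 0.087, adjusted p = 0.0846). Itga7, best known as the laminin receptor chain of muscle, was at 46.4 and 47.2 CPM in parental cells, 2.64 and 2.67 in clone 1 and 1.59 and 1.36 in clone 2, and it fell 22.2-fold (-4.47 ± 0.3, adjusted p = 0.000672). Itga3, a further laminin receptor chain, was at 4.71 and 5.23 CPM in parental cells, 0.198 and 0.175 in clone 1 and 0.906 and 1.09 in clone 2 (-3.04 ± 0.76, adjusted p = 0.0431), a call lost without either parental library and with no filter. Itga7 made up 11.8% of the per-kb sum of the α chains that pair with β1 in parental cells, 0.453% in clone 1 and 0.267% in clone 2, while Itga6 took 33.8%, 27.7% and 27.2%.

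Of the collagen-binding α chains, Itga2 was at 3.04 and 3.90 CPM in the parental libraries and 1.03 to 1.45 in the labelled knockout libraries and fell 2.65-fold (adjusted p = 0.00934), a call lost without parental library 2. Itga11 was at 1.37 and 1.71 CPM in parental cells and 0.257 to 0.519 in the labelled knockout libraries and fell 3.94-fold (-1.98 ± 0.25, adjusted p = 0.00454). Itga1 lay higher instead, at 13.4 and 12.7 CPM in parental cells, 31.0 and 26.8 in clone 1 and 15.5 and 15.7 in clone 2, and did not pass (0.80 ± 0.29, adjusted p = 0.102). Itga10 was at 1.22 CPM or less and did not pass, and 33.5% of its exon bases are shared with another gene model. Of the chains best known from blood cells and platelets, Itga2b was above Itga2 and Itga3 in parental cells, and the others named next were low. Itga2b, the platelet fibrinogen receptor chain, was at 11.3 and 10.4 CPM in parental cells and 3.05 to 3.28 in the labelled knockout libraries and fell 3.41-fold (adjusted p = 0.00133). Itgb2, the β chain of leukocytes, was at 1.68 and 1.56 CPM in parental cells and 0.0755 to 0.146 in the labelled knockout libraries and fell 14.2-fold (-3.83 ± 0.26, adjusted p = 0.000718). Itgae, the αE chain of mucosal T cells, was at 0.234 and 0.526 CPM in parental cells and 1.01 to 1.60 in the labelled knockout libraries and rose 3.52-fold (adjusted p = 0.0287, and 0.119 without parental library 1). Itgam, Itgax and Itgb2l had 12 counts or fewer in every library and were not tested.

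**Figure D4:**
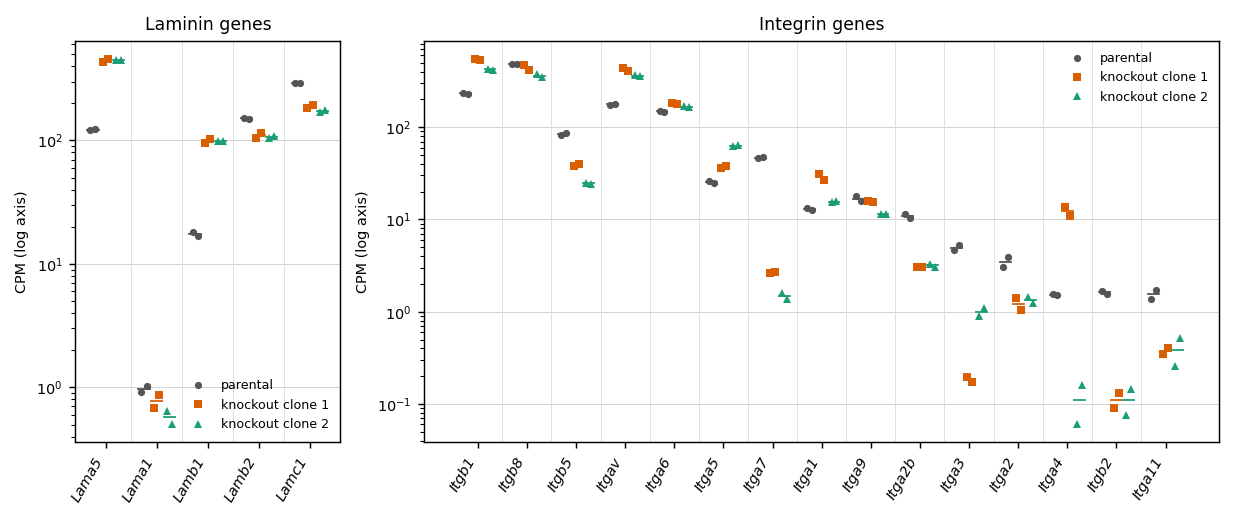
CPM (log axis) of 5 laminin and 15 integrin genes in each library; points are libraries, lines are group means, grey circles parental, orange squares KO clone 1 and green triangles KO clone 2. Lama5 and Lamb1 lie above the parental level to the same extent in both clones, Itga7 lies far below in both, and Itga4 lies above in clone 1 and below in clone 2.

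Each clone was next set against the same parental libraries, so these 2 comparisons share their controls. In clone 1 against parental cells, 30 of 42 tested collagen genes were called (11 higher, 19 lower), 6 of 11 laminin genes (2 higher, 4 lower) and 19 of 23 integrin chains (8 higher, 11 lower), beside 54.5% of all genes (27.3% higher, 27.2% lower). In clone 2 the counts were 32 of 42 collagen genes (9 higher, 23 lower), 8 of 11 laminin genes (2 higher, 6 lower) and 19 of 23 integrin chains (6 higher, 13 lower), beside 53.5% of all genes (26.7% higher, 26.8% lower). The median log2 fold change of the collagen genes was -0.22 in clone 1 and -1.04 in clone 2, that of the integrin chains was -0.54 and -0.70, and that of all genes was -0.01 and 0.02. Col4a1 was called higher in each clone, at 2.35 ± 0.088 in clone 1 and 0.47 ± 0.094 in clone 2, and so were Col4a2, Col4a4, Itga1 and Itga6. Col5a2 was called higher in clone 1 (0.21) and lower in clone 2 (-0.78). Leaving out parental library 1 ended the calls of Col4a4 in both clones and of Col5a2 in clone 1, and leaving out parental library 2 ended those of Col4a2, Itga1 and Itga6 in clone 2. The laminin count of clone 2 was 5 without parental library 2 and 5 without the second clone 2 library.

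The clones were then tested against each other. Clone 2 differed from clone 1 in 21 of 42 tested collagen genes (6 higher, 15 lower), 2 of 11 laminin genes (1 in each direction) and 13 of 23 integrin chains (3 higher, 10 lower), beside 36.4% of all genes, with 16.1% higher and 20.3% lower. The collagen median was -0.33, the laminin median -0.05, the integrin chain median -0.23 and the median of all genes -0.01. Itga4, the α chain of the receptor for VCAM1 and fibronectin on leukocytes and migrating cells, differed most of the 80 genes tested. It was at 1.54 and 1.53 CPM in parental cells, 13.7 and 11 in clone 1 and 0.0604 and 0.162 in clone 2. Clone 1 thus lay 8.03-fold above the parental cells and clone 2 lay 13.8-fold below them, and the difference between the clones was -6.79 ± 0.24 on the log2 scale (adjusted p = 4.33e-12). With the clones as replicates it did not pass (adjusted p = 0.483). The gene (ENSMUSG00000027009, chr2:79255426-79333123, plus strand) shares 8.04% of its exon bases with Cerkl on the other strand. The stretch before its start, shown as that of the gene with the largest difference between the clones, lies at chr2:79255176-79255425 and holds 1 GC box.
Itga4: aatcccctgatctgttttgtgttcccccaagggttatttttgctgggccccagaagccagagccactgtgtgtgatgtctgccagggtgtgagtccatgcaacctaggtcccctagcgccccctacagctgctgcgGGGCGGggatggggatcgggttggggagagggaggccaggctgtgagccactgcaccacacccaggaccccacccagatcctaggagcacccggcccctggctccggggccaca
Its GC content was 64.0%, and it holds 6 CpG.

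Collagens differed between the clones in both directions. Against clone 1, clone 2 was lower in Col6a3 (-2.85 ± 0.36, adjusted p = 1.25e-05), Col13a1 (-2.17 ± 0.31, adjusted p = 3.45e-05), Col4a1 (-1.88 ± 0.085, adjusted p = 7.46e-11) and Col28a1 (-1.79 ± 0.065, adjusted p = 5.38e-12). Col13a1, a membrane collagen of nerve-muscle contacts, was at 0.561 and 0.373 CPM in parental cells, 1.17 and 1.66 in clone 1 and 0.287 and 0.341 in clone 2. The fibrillar chains Col5a2 (-0.98) and Col27a1 (-0.99) were likewise lower in clone 2. Clone 2 was higher in Col7a1 (0.69 ± 0.25, adjusted p = 0.0374), Col20a1 (0.50 ± 0.16, adjusted p = 0.0198) and Col23a1 (0.49 ± 0.093, adjusted p = 0.00056). The calls of Col7a1 and Col20a1 were each lost in 3 of 11 alternatives, which left out 1 library of clone 1, left out 1 of clone 2 or used DESeq2, with adjusted p up to 0.31 for Col7a1 and 0.184 for Col20a1.

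Among integrins, clone 2 was higher than clone 1 in Itga3 (2.40 ± 0.28, adjusted p = 5.07e-06), Itga5 (0.77 ± 0.055, adjusted p = 1.98e-08) and Itgb4 (0.84 ± 0.17, adjusted p = 0.00102). Itgb4, the β chain of the anchoring junctions of epithelia, was at 2.09 and 2.10 CPM in parental cells, 1.54 and 1.34 in clone 1 and 2.75 and 2.42 in clone 2. Besides Itga4, clone 2 was lower in Itga8 (-1.33 ± 0.27, adjusted p = 0.000934), Itga1 (-0.89 ± 0.079, adjusted p = 2.56e-07) and Itga7 (-0.84 ± 0.12, adjusted p = 3.31e-05). Lama5 (0.01 ± 0.041, adjusted p = 0.929) and Lamb1 (-0.02 ± 0.051, adjusted p = 0.833) did not pass between the clones. Lamc1 was lower in clone 2 by a small step (-0.14 ± 0.044, adjusted p = 0.0244) that was lost in 8 of 12 alternatives, including leaving out any library but the first of clone 1 and upper quartile scaling. Without the second clone 2 library no laminin gene passed (0 calls).

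**Figure D5:**
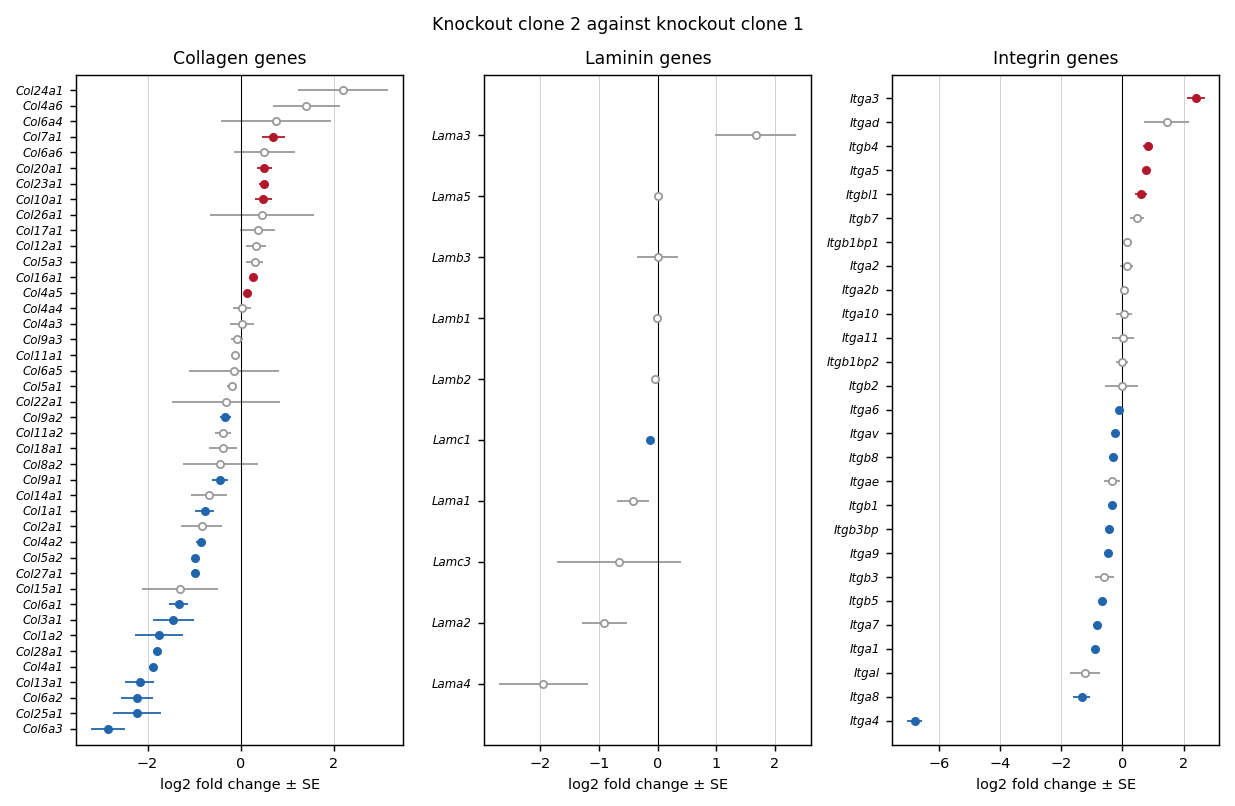
Log2 fold change of knockout clone 2 against knockout clone 1 for the tested collagen, laminin and integrin genes reported by name; bars are SE, red points passed the test as higher, blue as lower, and open grey points did not pass. Itga4 stands alone at -6.79, and Lama5 and Lamb1 lie at 0.

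Genes that work with these chains were counted from lists, with the clones as replicates and beside the 13.0% of all genes called higher and 13.6% called lower. Of 20 other basement membrane proteins, 7 rose and 3 fell (median 0.23). Hmcn1, a giant matrix protein that links basement membranes, was at 8.45 and 8.14 CPM in parental cells, 484 and 478 in clone 1 and 292 and 294 in clone 2 (log2 fold change 5.57, adjusted p = 0.000375). Ntn1, a guidance cue related to laminins, rose from 74.7 and 74.6 CPM to 356 to 448 (adjusted p = 0.000375), and Nid1, the link between laminin and collagen IV, fell from 10.6 and 10.4 CPM to 1.34 to 1.55 (adjusted p = 0.00047). Linkers of the same membrane thus moved in both directions.

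Of 30 genes of collagen making, 9 rose and 6 fell (median 0.06). The 3 with the smallest adjusted p were P3h2, a prolyl hydroxylase that acts on collagen IV, which fell from 7.26 and 6.99 CPM to 1.23 to 1.75 (adjusted p = 0.00121), and Plod1 and Plod2, lysyl hydroxylases, which rose by 0.86 and 1.19 on the log2 scale. Serpinh1, the collagen chaperone HSP47, is given as chosen after its values were seen: it was at 55.3 and 52.5 CPM in parental cells, 0.29 and 0.452 in clone 1 and 1.39 and 1.38 in clone 2, so that it fell by 5.91 on the log2 scale (adjusted p = 0.00554). Of 16 tested matrix metalloproteinases and their inhibitors, 3 rose and 5 fell (median -0.48). Timp4 rose from 23.8 and 24.1 CPM to between 250.1 and 270.4 (adjusted p = 0.00013), Mmp15, a membrane-bound protease, rose from 80.9 and 77.9 CPM to 284 to 318 (adjusted p = 0.00036), and Timp2 fell from 387 and 391 CPM to 131 to 151 (adjusted p = 0.000771). The inhibitors of these proteases thus moved in both directions.

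Of 21 tested matrix receptors other than integrins, 4 rose and 4 fell (median 0.02). The syndecan Sdc4 fell from 216 and 209 CPM to 22.1 to 25.9 (adjusted p = 0.000172), Sdc2 fell from 84.2 and 84.1 CPM to 23.2 to 27.6 (adjusted p = 0.000585), and Sdc3 rose from 323 and 329 CPM to between 1225 and 1329.6 (adjusted p = 0.000331). Of 23 tested integrin ligands outside the collagens and laminins, 4 rose and 5 fell (median -0.86). Fn1, fibronectin, fell from 411 and 414 CPM to 74.8 to 85.6 (adjusted p = 0.000272), and Fbn2, an elastic fibre protein, rose from 46.0 and 44.7 CPM to 139 to 158 (adjusted p = 0.000447). Thbs2 fell from 3.87 and 4.12 CPM to 0.302 to 0.549 (adjusted p = 0.00139).

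Inside the cell, 4 of 28 tested proteins of integrin adhesions rose and 13 fell (median -0.43). Bcar1, an adaptor that docks kinases at adhesions, fell from 142 and 142 CPM to 51.3 to 57.3 (adjusted p = 0.000771), Kank2, which binds talin, fell from 48.2 and 50.1 to 19.9 to 21.6 (adjusted p = 0.00108), and Parvb, a member of the parvin adaptors, fell from 49.4 and 48.2 to 5.22 to 10.4 (adjusted p = 0.00276). Of 11 membrane partners of integrins none rose and 7 fell (median -0.68). Among them the caveolar protein Cav1 fell from 2.56 and 2.68 CPM to 0.107 to 0.373 (adjusted p = 0.00282), and the tetraspanins Cd63 and Cd151 fell by 0.96 and 0.89 on the log2 scale.

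Markers of other cell types that make these chains were read beside the results. The 8 fibroblast and meningeal markers summed to 68.6 to 70.3 CPM in the parental libraries, 70.01 to 71.9 in clone 1 and 45.1 to 46.7 in clone 2, and 0 of 7 tested ones passed. Most of that sum was Pdgfra and Foxc1. In every library 5 of the 8 markers were under 1 CPM, among them Dcn and Lum. Mean levels in parental cells, clone 1 and clone 2 were 0.114, 0.113 and 0.0702 CPM for Dcn and 0.00848, 0.0225 and 0 for Lum. The 7 pericyte and smooth muscle markers summed to 7.22 to 7.58 CPM in parental cells, 1.56 to 1.75 in clone 1 and 1.40 to 1.57 in clone 2, and 4 fell. The 7 endothelial markers summed to 1.93 to 2.37, 3.75 to 4.55 and 2.01 to 2.05 CPM. Of 5 tested ones 1 rose and 0 fell (median log2 fold change 0.32), and Cdh5 was at 0.105, 0.0746 and 0 CPM. The 6 microglia and macrophage markers summed to 8.01 to 8.45, 2.74 to 2.78 and 2.70 to 3.07 CPM, of which Cd68 was the larger part and Tyrobp was at 0.0163, 0.00729 and 0. The 5 Schwann and neural crest markers summed to 3.31 to 3.90, 1.97 to 2.74 and 2.94 to 3.49 CPM. The pericyte sum thus fell alongside Col4a6, Col6a1, Col6a2 and Col12a1, and the microglia sum alongside Itgb2. The endothelial sum was highest in clone 1, as were Col4a1 and Col4a2. The part of other cell types in these changes was not tested.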

How the data were processed

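The authors deposited 1 table of whole-number counts per gene, not normalized, for the 6 libraries. Per the labels' protocols, RNA was isolated on silica columns and libraries were made with a low-input cDNA kit or a TruSeq kit, with no record of which library had which. STAR, featureCounts, GRCm38.p6 and mm10 are named, without versions, in the submitters' processing notes. Strand and multimapping settings were not given in those sources, so reads of overlapping, antisense or near-identical genes cannot be told apart.

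Columns were matched to samples by name. Symbols in the file picked the 86 genes, and all 86 matched GENCODE M21 by ID and symbol, which gave exon lengths and coordinates on GRCm38. The test was that of edgeR 4.0.16 in R 4.3.3: filterByExpr (minimum count of 10), TMM scaling, the robust quasi-likelihood test, and Benjamini-Hochberg adjustment at 0.05 over all tested genes. With the clones as replicates, the 2 libraries of each clone were added (2 residual degrees of freedom), which takes the spread of clones and of parental libraries as equal. Contrasts of single groups came from 1 fit of 6 libraries (3 residual degrees of freedom). An SE is the log2 fold change divided by the square root of F. Of the 86 genes, 5 were too low to test with the clones as replicates and 6 in the fit of 6 libraries. Promoter windows are RefSeq's, and 62 of the 86 genes had one.

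Genes described by library were the most abundant of each family, those called with the largest changes, and their partner chains, except that some results for single genes are not reported here; list genes were the 3 with the smallest adjusted p. Members, lists and rules were chosen with earlier results of these data known. The code was tested on simulated data. Alternatives were DESeq2 1.42.0, other scalings, a minimum mean of 5 CPM, no filter, a minimum log2 change of 1, libraries as replicates, a replicate block, and leaving out libraries or a clone. Reads are not independent molecules, so precision was judged from the spread between libraries.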

Additional observations from a re-analysis of the deposited data

Results flagged for a closer look

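Members whose difference between the clones passed edgeR's test, with at least 1 CPM in the mean of a clone, are given here because the same knockout label went with different levels. Values are log2 fold changes of clone 2 against clone 1. Among collagens, clone 2 was lower in Col6a3 (-2.85), Col13a1 (-2.17), Col4a1 (-1.88), Col28a1 (-1.79), Col6a1 (-1.33), Col27a1 (-0.99), Col5a2 (-0.98), Col4a2 (-0.87), Col1a1 (-0.77), Col9a1 (-0.44) and Col9a2 (-0.33). It was higher in Col7a1 (0.69), Col20a1 (0.50), Col23a1 (0.49), Col10a1 (0.48), Col16a1 (0.27) and Col4a5 (0.13). The laminin gene Lamc1 was lower in clone 2 (-0.14).

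Among integrin genes, clone 2 was lower in Itga4 (-6.79), Itga8 (-1.33), Itga1 (-0.89), Itga7 (-0.84), Itgb5 (-0.65), Itga9 (-0.47), Itgb1 (-0.35), Itgb8 (-0.30), Itgav (-0.23) and Itga6 (-0.11), and in Itgb3bp (-0.44), which encodes no integrin chain. It was higher in Itgb4 (0.84), Itga5 (0.77) and Itgbl1 (0.62). Of these genes, Col6a3, Col5a2 and Itga4 were called higher than parental in clone 1 and lower in clone 2. Both clones were lower than parental in Col6a1, Itga7 and Itgb5, clone 2 the more so, and both were higher in Col4a1, Col28a1, Itgb1 and Itgav, clone 1 the more so. Of the listed calls between the clones, those of Col4a5, Col7a1, Col9a1, Col9a2, Col10a1, Col20a1, Itga6 and Itgbl1 were lost with DESeq2. With no filter on low counts, those of Col9a1, Col9a2, Col10a1, Itga6 and Lamc1 were lost.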

How the results depend on the processing

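Of the family counts, 131 of 169 values under the alternatives stayed within 1.5 times of those reported. At a minimum mean of 5 CPM, the labelled knockout comparison called 8 collagen and 5 integrin genes, beside 3795 of 11025 over all genes. Clone 1 against parental called 11 and 9, beside 8019 of 11019. Clone 2 against parental called 12 collagen, 4 laminin and 12 integrin genes, beside 7847 of 11019. Clone 2 against clone 1 called 9, 0 and 9, beside 6619 of 11019. With the reported filter and a log2 change of at least 1, clone 2 against parental gave 21 collagen, 5 laminin and 14 integrin genes. Clone 2 against clone 1 then gave 9, 1 and 3. For neither comparison is the share of all genes at this minimum change given, so these counts cannot be read as high or low. With libraries as replicates, the labelled knockout comparison called 30 collagen and 21 integrin genes, beside 13213 of all 23400. That fit leaves out the spread between the clones. DESeq2 called 5 laminin genes in clone 2 against parental, beside 10156 of the 29223 genes given an adjusted p. No filter or upper quartile scaling left 1 laminin gene between the clones, beside 8745 of 42365 and 8410 of 23400 genes.

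Libraries with the same number did not deviate together (correlations of -0.007, -0.015 and 0.019 over 23400 genes). These values cannot tell what the numbers stand for. With the replicate number as a block in the fit of 6 libraries, 31 collagen, 8 laminin and 21 integrin genes were called. That was for labelled knockout against parental cells, beside 13140 of 23400 over all genes. No other family count moved by over 1.5 times.

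Leaving out a library or a clone gave, for the labelled knockout comparison, 8 to 32 collagen, 3 to 9 laminin and 8 to 23 integrin genes, the lowest without a parental library and the highest with 1 clone alone. The ranges were 5 to 9 laminin genes for clone 2 against parental and 0 to 2 between the clones. Of 650 gene values under the alternatives, 565 kept direction and side of the threshold, 45 lost the call, 38 gained it, and 2 that had not passed changed sign: Col11a1 with no filter (0.0233) and Col5a2 without clone 2 (0.2355, against -0.75 without clone 1). Over all genes, too, the labelled knockout comparison called fewest without a parental library and most with 1 clone alone. Family medians kept their sign under each scaling. Genes under 1 CPM rest on few counts.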

Other observations

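In the RefSeq windows of 62 of the 86 genes, TATAAA was found in 5, CCAAT in 18, GGGCGG in 34 and TGANTCA in 4. Over all 32851 windows the shares were 13.62%, 37.41%, 35.66% and 7.81%. These are shares of windows, whereas the 62 genes had 68 windows and a gene counted if any of its windows matched. All 5 genes with TATAAA were collagens, of 35 with a window, and none were among 22 integrin or 5 laminin genes. Whether the families differ in it was not tested. GGGCGG was found in 22 of the 35 collagens, 3 of the 5 laminins and 9 of the 22 integrins. Of the 3 head-to-head pairs of type IV collagen genes, Col4a4 and Col4a3 have 126 bases between their start sites.

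Values of genes that the symbol rule caught without encoding an integrin chain were as follows. Itgb1bp1, which binds the tail of the β1 chain, was at 16.0 to 17.6 CPM in parental cells and 17.4 to 21.6 in the labelled knockout libraries. Itgb1bp2 was at 1.25 to 1.62 CPM in all 6 libraries. Itgb3bp, a centromere protein, was at 4.87 to 6.91 CPM. Itgbl1, a secreted protein with integrin-like repeats, was at 0.779 and 0.611 CPM in parental cells, 1.63 and 1.24 in clone 1 and 2.23 and 2.16 in clone 2, and it rose 2.66-fold with the clones as replicates (log2 fold change 1.41 ± 0.31, adjusted p = 0.027 by edgeR). That call was lost without either parental library (adjusted p up to 0.158).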
